A study of Rattus norvegicus with 4 samples.

Results

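The enzymes that build purine and pyrimidine nucleotides, together with the salvage enzyme uridine phosphorylase, were compared between 33 °C and 39 °C in RTEC11 cells, an epithelial line from rat trachea. Members were the probe sets annotated to exactly 1 gene symbol, where that symbol was 1 of 10: Prps1, Ppat, Paics, Gart, Atic, Impdh2, Cad, Umps, Ctps1 and Upp1. Of these, 8 genes were measured, by 11 of the 15866 probe sets that are not controls. No probe set was annotated to Impdh2, and the probe set of Paics was annotated to a further gene as well, so neither has a value here. RTEC11 came from transgenic rats that carry a temperature-sensitive large T antigen of simian virus 40, which in its active form blocks p53 and the retinoblastoma family. The antigen works at 33 °C, the permissive temperature, and is inactivated at 39 °C, the nonpermissive temperature. Both groups were the same transgenic line kept for 3 days at 1 temperature, with 2 arrays per group and 4 in all. The effects of heat and of losing the antigen cannot be told apart, since no array separates them. The labels do not say whether the 2 arrays of a group came from separate cultures, so a p-value here reflects array-to-array spread alone, and that spread may be technical. In bulk RNA, fewer cells that express a gene and less of its RNA per cell cannot be told apart either.

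Nucleotides are made in cells by building the ring from small molecules, which is the de novo route, or by reusing bases and nucleosides, which is salvage. Purines are assembled on phosphoribosyl pyrophosphate, which Prps1 makes. Ppat takes the first committed step, Gart, Paics and Atic carry out further steps up to inosine monophosphate, and Impdh2 leads from there towards guanine nucleotides. In the pyrimidine route Cad starts the ring, Dhodh oxidises it in the mitochondrion, Umps completes uridine monophosphate and Ctps1 makes the cytidine nucleotide. Dividing cells draw on these routes for RNA, DNA and sugar carriers, and several of the genes are known targets of the growth regulator Myc.

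All 8 measured genes were lower at 39 °C and none was higher (limma on all probe sets, adjusted p under 0.05, each gene by its brightest probe set). Of all 10411 genes counted in that way, 15.0% were called lower and 13.6% higher. Both 39 °C arrays lay below both 33 °C arrays for all 8, which was so for 33.6% of all genes. The log2 changes ran from -0.45 for Prps1 to -2.74 for Upp1, with a median of -0.93 beside -0.04 over all genes. Among the 11 probe sets, 8 were called lower, against 12.6% of all probe sets, 0 were called higher, against 12.1%, and the other 3 were not called. All 11 changes were below 0, and in 10 of them both 39 °C arrays lay below both 33 °C arrays, as in 31.6% of all probe sets. These genes were put together with results of these arrays known, so the counts are a description, to be read beside the shares over all genes. A probe set is called dim here where its log2 mean is in the lowest 40% (below an intensity of 81.1). Of the 8 genes, Upp1 stood above that limit only through its 33 °C arrays. Intensities are on the authors' linear scale, and log2 values are of intensity + 16 after quantile normalization. An SE given with a change is the moderated one from limma. It pools a probe set's own spread with that of probe sets of like intensity, so it can differ from what the SDs shown would give.

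**Figure D1:**
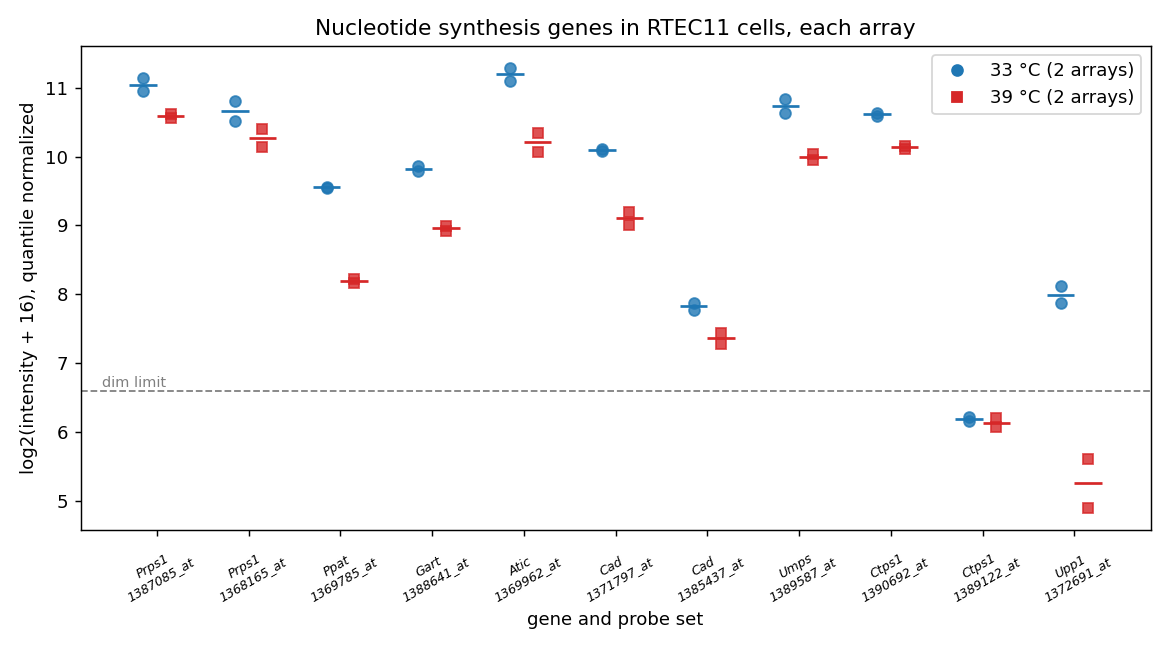
Quantile-normalized log2(intensity + 16) of the 11 probe sets on each array, with circles for the 2 arrays at 33 °C, squares for the 2 at 39 °C and short lines for their means. In 10 of 11 probe sets both squares lie below both circles, the exception being the dim Ctps1 probe set, and heights should not be compared between probe sets.

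Purine synthesis begins with Prps1, a phosphoribosyl pyrophosphate synthetase. Its brighter probe set (1387085_at) read 2272.7 and 1974.4 at 33 °C and 1549.5 and 1501.3 at 39 °C. Both warm arrays were thus under both cool ones, and the log2 level fell from 11.04 ± 0.13 to 10.59 ± 0.04 (SD, n = 2 each), a change of -0.45 ± 0.09 (SE, adjusted p 0.0112). This was the smallest change among the 8 genes and the least firm call, since the adjusted p was 0.0551 without nonpermissive replicate 1 (change -0.49), 0.0822 without nonpermissive replicate 2 (-0.42) and 0.118 without an intensity trend in the variance. A second Prps1 probe set (1368165_at) read 1793.0 and 1448.0, then 1112.4 and 1346.9. It also lay lower on both warm arrays, at -0.40 ± 0.13 (SE), and was not called (adjusted p 0.0729). This second value was called with each array shifted to a common median (-0.54) and when dim probe sets were left out of the adjustment. It was also called with permissive replicate 2 left out (-0.54) and with spike-in scaling, which sets arrays to the poly-A control probe sets (-0.77).

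Prps2, which encodes the isozyme of the same step, went the other way. Its brightest probe set (1375932_at) read 540.6 and 611.4 at 33 °C and 997.2 and 1102.1 at 39 °C, so each warm array was above each cool one. The log2 level rose from 9.24 ± 0.12 to 10.05 ± 0.09 (SD, n = 2 each), by 0.80 ± 0.11 (SE, adjusted p 0.00195), 1.74-fold. A second Prps2 probe set (1398262_at) rose by 0.91 ± 0.18 (SE), and the third and dimmest (1368551_at) changed by 0.48 ± 0.27 without a call. Within an array, the log2 value of Prps1 minus that of Prps2 was 1.97 and 1.63 at 33 °C and 0.64 and 0.45 at 39 °C, a shift of -1.25. Levels of different probe sets cannot be set against each other, so only the shift is read. With 2 arrays against 2, the smallest two-sided p an exact permutation test allows is 0.333, which this shift gave, so it is a description. On the deposited scale the shift was -1.32.

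The sequences upstream of Prps1 and Prps2 are shown because these isozymes changed in opposite directions. They come from RefSeq on assembly GRCr8, run 5′ to 3′ and end at the base before the annotated start. Prps1 is read on the plus strand at chrX:108920413-108920662 and Prps2 on the plus strand at chrX:30592595-30592844. Capitals mark the GC box GGGCGG, or CCGCCC where it lies on the other strand, a motif bound by transcription factors of the Sp family.
Prps1: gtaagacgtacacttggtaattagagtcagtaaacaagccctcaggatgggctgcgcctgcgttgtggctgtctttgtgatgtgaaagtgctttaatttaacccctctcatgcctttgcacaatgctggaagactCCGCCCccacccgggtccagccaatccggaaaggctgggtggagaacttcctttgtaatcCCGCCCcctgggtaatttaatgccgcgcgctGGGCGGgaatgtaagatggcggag
Prps2: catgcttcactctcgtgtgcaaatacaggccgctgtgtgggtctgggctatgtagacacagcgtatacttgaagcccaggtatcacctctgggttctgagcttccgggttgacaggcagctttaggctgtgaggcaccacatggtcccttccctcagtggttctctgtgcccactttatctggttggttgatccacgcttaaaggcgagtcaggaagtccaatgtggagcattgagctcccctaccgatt
The Prps1 window held 3 GC boxes and the Prps2 window none. A GC box was in 55.0% of the promoters of measured genes, and a link between GC boxes and the direction of change was not tested.

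**Figure D2:**
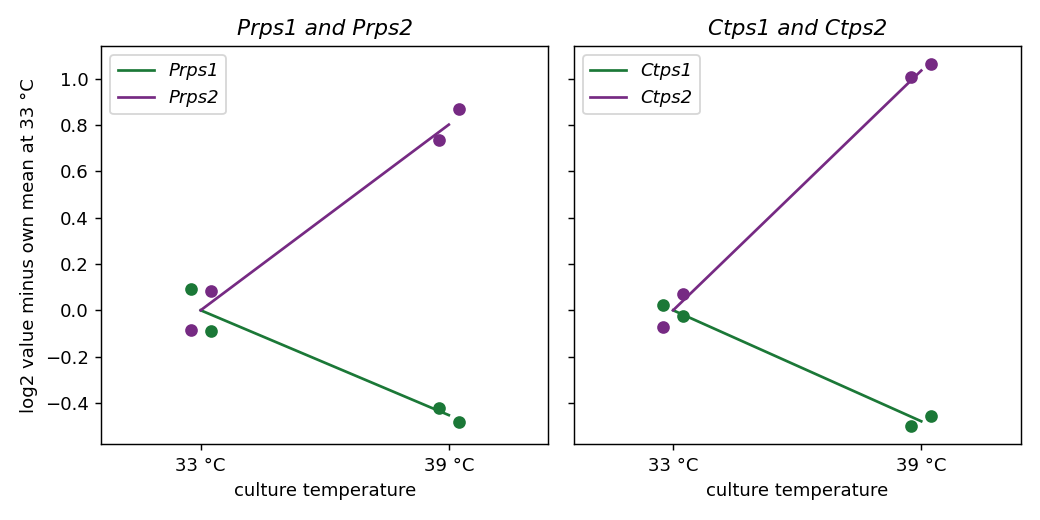
Log2 value on each array minus the same probe set's mean at 33 °C, for Prps1 and Prps2 on the left and Ctps1 and Ctps2 on the right, with lines joining group means of 2 arrays. At 39 °C Prps1 and Ctps1 lie below 0 at -0.45 and -0.48, and Prps2 and Ctps2 above it at 0.80 and 1.04.

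Ppat, the amidotransferase that commits phosphoribosyl pyrophosphate to purine synthesis, changed more than Prps1, Gart and Atic. Its probe set (1369785_at) read 717.5 and 731.4 at 33 °C and 283.9 and 294.2 at 39 °C. The replicates lay close together and the groups far apart, with a fall from 9.55 ± 0.01 to 8.19 ± 0.04 (SD, n = 2 each), 2.57-fold (change -1.36 ± 0.11 SE, adjusted p 3.1e-04). Only 1.34% of all probe sets had a more negative change. Ppat is head to head with Paics, whose enzyme acts later in the same route: in the RefSeq annotation they lie on opposite strands, and the windows around their starts share 74 of 300 bases. The call for Ppat held under each of the 13 alternatives, with changes between -1.66 and -1.23.

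Gart, a trifunctional enzyme of the middle steps, read 855.5 and 903.6 at 33 °C and 506.4 and 485.4 at 39 °C (1388641_at). The change was -0.87 ± 0.10 (SE), 1.83-fold lower with an adjusted p of 0.00108. Atic, which closes the purine ring to give inosine monophosphate, read 2210.7 and 2530.4, then 1288.7 and 1071.8 (1369962_at). Its replicates were more spread than those of Ppat, yet both warm arrays were far below both cool ones, and the log2 level fell from 11.19 ± 0.13 to 10.21 ± 0.19 (SD, n = 2 each). The Atic change was -0.98 ± 0.12 (SE), 1.98-fold lower with an adjusted p of 0.00123. The calls of Gart and Atic held under each of the 13 alternatives.

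Of the 7 measured members with a promoter entry in RefSeq (Umps had none), only Atic held an E-box, CACGTG, in the 250 bases before its start. The E-box is a palindrome bound by Myc with Max and by other helix-loop-helix factors. It occurred in 7.66% of 9498 promoters of measured genes and in 5.59% of all 33469. GC boxes, counted on both strands, were in 6 of the 7, all but Upp1, against 55.0% of the promoters of measured genes and 30.5% of all. The stretch of the Atic window that lies in no other annotated gene is printed from the plus strand at chr9:80614199-80614310 of GRCr8, with 1 E-box and 3 GC boxes in capitals.
Atic: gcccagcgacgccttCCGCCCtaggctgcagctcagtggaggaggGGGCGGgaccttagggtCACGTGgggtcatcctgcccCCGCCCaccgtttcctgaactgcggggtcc
A match is a description of the letters in this window. It does not show that a factor binds there. Whether the annotated starts are those used in these cells was not tested, which also limits the absence of a GC box for Upp1.

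Pyrimidine synthesis begins with Cad, a protein that joins the first 3 enzymes of the route. Its brighter probe set (1371797_at) read 1081.5 and 1059.6 at 33 °C and 582.4 and 518.0 at 39 °C. Both warm arrays were near one another and well under the cool ones, and the log2 level fell from 10.09 ± 0.02 to 9.10 ± 0.13 (SD, n = 2 each), 1.99-fold (change -0.99 ± 0.10 SE, adjusted p 7.3e-04). The dimmer Cad probe set (1385437_at) read 207.1 and 193.2, then 169.2 and 145.4. It was lower on both warm arrays as well, by less (-0.47 ± 0.20 SE), and was not called (adjusted p 0.144). It was called only with spike-in scaling (-0.70, adjusted p 0.0446), the range over its alternatives being 0.0446 to 0.408.

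Dhodh, the mitochondrial dehydrogenase of the next step, is no member but stands between Cad and Umps. It read 623.3 and 503.0 at 33 °C and 154.0 and 124.0 at 39 °C (1382348_at), a change of -2.0 ± 0.18 (SE) on the log2 scale, or 4.0-fold lower with an adjusted p of 4.0e-04. Umps, which makes uridine monophosphate, read 1824.4 and 1579.8, then 1032.9 and 985.9 (1389587_at). The groups did not overlap, and the change was -0.75 ± 0.10 (SE), 1.68-fold lower with an adjusted p of 0.00183. Without an intensity trend in the variance the adjusted p for Umps was 0.0517.

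Ctps1, a synthetase of the cytidine nucleotide, read 1591.7 and 1521.3 at 33 °C and 1093.1 and 1127.7 at 39 °C (1390692_at). The spread within groups was small, and the level fell from 10.61 ± 0.03 to 10.13 ± 0.03 (SD, n = 2 each), a change of -0.48 ± 0.08 (SE, adjusted p 0.00522). Its adjusted p without an intensity trend was 0.0851. The other Ctps1 probe set (1389122_at) was dim on all 4 arrays, with intensities between 53.8 and 58.8, overlapping groups and a change of -0.06 ± 0.31 (SE, adjusted p 0.923). At that level it gives no reading of the gene in either direction.

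Ctps2, the isozyme of Ctps1, rose. Its brighter probe set (1389135_at) read 852.3 and 942.8 at 33 °C and 1831.4 and 1919.4 at 39 °C, a change of 1.04 ± 0.09 (SE), 2.05-fold with an adjusted p of 3.5e-04. Both warm arrays were above both cool ones by more than any spread within a group. A dimmer Ctps2 probe set (1374482_at) changed by 0.17 ± 0.20 (SE) and was not called. The log2 value of Ctps1 minus that of Ctps2 was 0.85 and 0.66 at 33 °C and -0.75 and -0.76 at 39 °C, a shift of -1.51, or -1.53 on the deposited scale. As for the Prps pair, only the shift is read, and the sign of the difference does not show which isozyme is more abundant. The exact permutation p was again the smallest possible, 0.333. The rises of Prps2 and Ctps2 were called under each of the 13 alternatives, and they were 0.47 and 0.67 with spike-in scaling. In the 250 bases before their starts, Ctps1 held 2 GC boxes and Ctps2 none. Other genes were mixed: Adsl and Phgdh fell and held 2 and none, while Aprt and Xdh rose and held 3 and none. These examples followed no set rule. A GC box was in 55.0% of the promoters of measured genes, and a link to direction was not tested.

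Upp1, uridine phosphorylase, splits uridine into uracil and a ribose phosphate and can run in both directions. Its probe set (1372691_at) read 206.1 and 249.7 at 33 °C and 37.8 and 14.5 at 39 °C. Both warm arrays were under the limit for dim probe sets, while both cool arrays were above it. The log2 level fell from 8.0 ± 0.18 to 5.25 ± 0.50 (SD, n = 2 each), a change of -2.74 ± 0.34 (SE) with an adjusted p of 0.0015. Because the warm values are dim, the size depends on the number added to each intensity: the change was -3.42 with 1 added and -1.81 with 64 added, called in both. Dropping nonpermissive replicate 1 gave -3.11, and dropping nonpermissive replicate 2 gave -2.36.

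**Figure D3:**
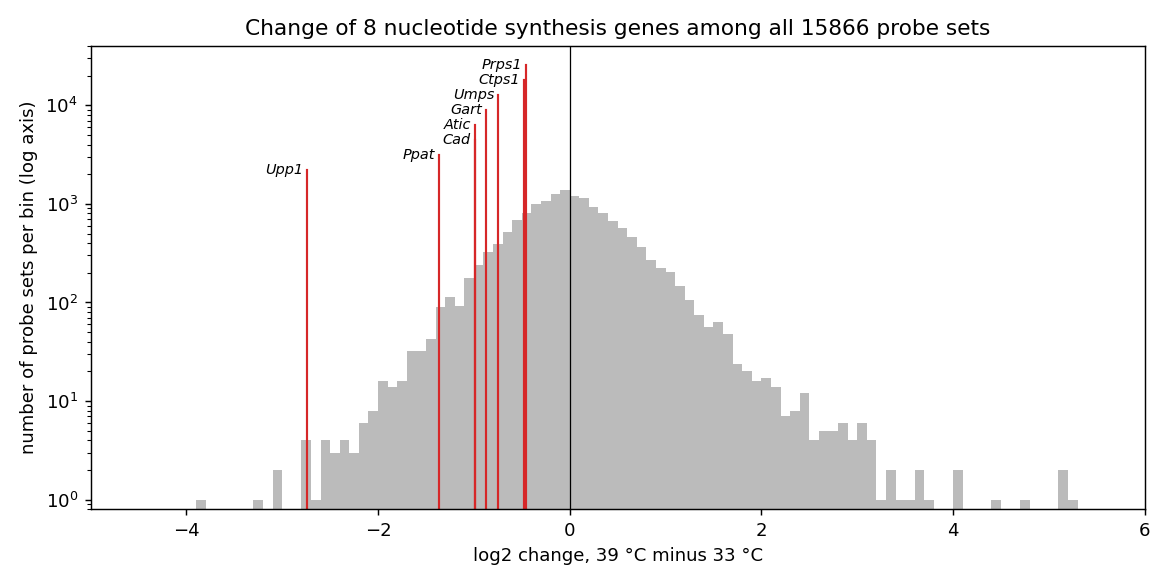
Histogram of the log2 change from 33 °C to 39 °C over all 15866 probe sets, on a log count axis, with a red line at the value of the brightest probe set of each of the 8 genes. All 8 lines lie left of 0, from -0.45 for Prps1 to -2.74 for Upp1.

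The way arrays were scaled moved the sizes but not the calls of the 8 genes. Their median change was -0.93 in the main setting. It was -0.87 for the values as deposited, -1.02 with median centring and -1.26 when the 24 poly-A spike-in control probe sets set the scale. All 8 were called lower under each of these. The median over all probe sets shifted too, being -0.03, 0.04, -0.10 and -0.34 in the same order, and the share of all calls that were higher was 48.9%, 54.7%, 38.2% and 19.0%. Values as deposited, median centring and spike-in scaling differ only by an amount common to all probe sets of an array. The distance of the 8 genes from the median over all probe sets is therefore the same in them by construction. It is no test of how the result depends on scaling. The 24 control probe sets were on average near the limit for dim probe sets (log2 6.60). Before normalization their log2 means were 6.63 and 6.69 at 33 °C and 6.99 and 7.09 at 39 °C. Whether their RNAs were added in equal amounts was not tested, which limits what spike-in scaling can show.

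**Figure D4:**
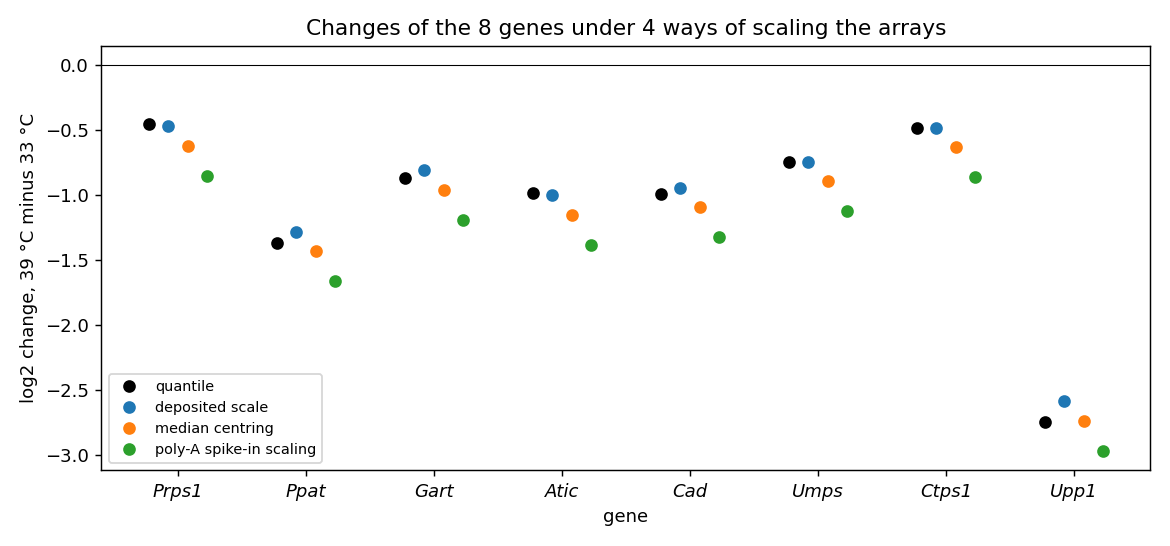
Log2 change of the 8 genes, each by its brightest probe set, under 4 scalings, namely quantile normalization, values as deposited, centring on medians and spike-in scaling. All points lie below 0, and those for spike-in scaling are the lowest for every gene.

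The other genes of nucleotide metabolism were taken from 9 lists of 94 genes, of which 69 were measured, 14 of them dim. Among the 69, 22 were lower, 11 were higher and 36 were not called, with a median change of -0.27. The corresponding shares are 31.9% lower and 15.9% higher, beside 15.0% and 13.6% of all genes. With spike-in scaling, 25.8% of all probe sets were called lower and 6.06% higher. Of the 69 genes, 33 were then lower and 5 higher, and those called higher were Prps2, Ctps2, Xdh, Tyms and Ak3. The spike-in shares are over probe sets and are not given by gene. In the main setting 12.6% of probe sets were lower, beside 15.0% of genes. The median change by list was -0.13 for other de novo purine genes, -0.48 for other de novo pyrimidine genes, -0.10 for pyrimidine salvage, -0.28 for breakdown and -0.56 for transporters. It was above 0 in purine salvage (0.12), deoxynucleotide supply (0.38) and nucleotide kinases (0.24). Those 3 medians turned to -0.29, -0.09 and -0.14 with spike-in scaling, and that of purine salvage was -0.06 with median centring, so no direction is given for them.

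Among 6 other genes of de novo purine synthesis, 2 fell (33.3%), 1 rose (16.7%) and 3 were not called, beside 15.0% lower and 13.6% higher among all genes. Prpsap1, a protein that associates with the Prps synthetases, changed by -1.0 ± 0.11 (SE, adjusted p 0.00104). Adsl, the lyase that acts between Gart and Atic and again after inosine monophosphate, changed by -0.85 ± 0.10 (SE, adjusted p 0.00122). Prps2 was the gene that rose. Of the other pyrimidine genes, Dhodh fell and Ctps2 rose, as given above.

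Folate one-carbon and serine supply provides the formyl groups that Gart and Atic put into the purine ring. It was the list with most falls: 8 of 13 measured genes fell (61.5%), 1 rose (7.69%) and 4 were not called, with a median change of -0.93. Among all genes 15.0% were lower and 13.6% higher. The largest falls were those of Psph and Phgdh, enzymes of serine synthesis. Psph read 989.8 and 976.1 at 33 °C and 197.9 and 253.3 at 39 °C, 4.42-fold lower (change -2.14 ± 0.14 SE, adjusted p 1.5e-04). Phgdh read 2571.4 and 2358.7, then 726.6 and 639.5, 3.54-fold lower (-1.83 ± 0.10 SE, adjusted p 8.6e-05). In both, each warm array was below each cool one by a wide margin. Chosen after their values were seen, the serine aminotransferase Psat1 (-1.66 ± 0.10 SE), the mitochondrial hydroxymethyltransferase Shmt2 (-1.59 ± 0.11) and the mitochondrial folate enzyme Mthfd2 (-1.44 ± 0.13) fell as well. Ggh, which trims the glutamate tail of folates, rose by 0.53 ± 0.08 (SE). The Ggh call was lost without an intensity trend (adjusted p 0.0716) and with spike-in scaling (change 0.12, adjusted p 0.397).

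Of 7 purine salvage genes, 2 fell (28.6%) and 1 rose (14.3%), beside 15.0% and 13.6% of all genes. With spike-in scaling, 3 of these 7 fell and none rose, beside 25.8% and 6.06% of all probe sets, shares not counted by gene. The adenosine deaminase Ada changed by -0.94 ± 0.13 (SE, adjusted p 0.00265) and the adenosine kinase Adk by -0.54 ± 0.13 (adjusted p 0.0206). A second, dimmer Adk probe set changed by -1.05 ± 0.15 (SE) and was called lower too (adjusted p 0.00242). Aprt, which reuses adenine, rose from readings of 4166.8 and 3841.1 to 5443.4 and 5399.9, by 0.55 ± 0.08 (SE, adjusted p 0.0032). The change of Aprt was 0.06 with spike-in scaling and was not called (adjusted p 0.735). Hprt1, which reuses hypoxanthine and guanine and was chosen after its values were seen, read 4317.3 and 4942.9, then 5029.9 and 4814.8. Its groups overlapped on the deposited scale and its change of 0.19 ± 0.09 (SE) was not called (adjusted p 0.22). The sign of that change turned with median centring (-0.06) and with spike-in scaling (-0.29). Of 5 pyrimidine salvage genes, 2 fell (40%) and 1 rose (20%), beside the same 15.0% and 13.6% of all genes. The uridine-cytidine kinase Uck2 (-0.66 ± 0.11 SE) and the thymidine kinase Tk1 (-0.53 ± 0.11) fell, and the related Uckl1 rose (0.57 ± 0.14). A second, dimmer Tk1 probe set (1372631_at) changed by -0.41 ± 0.14 (SE) and was not called (adjusted p 0.0738). With spike-in scaling 4 of these 5 genes fell and none rose, beside 25.8% and 6.06% of all probe sets, again not counted by gene. The Uckl1 call was lost there (0.31, adjusted p 0.163) and when any 1 array was left out (0.50 to 0.65). The Adk call was lost without nonpermissive replicate 2 (-0.37) or either permissive array (-0.57 and -0.51), and the Tk1 call without permissive replicate 1 (-0.46) or nonpermissive replicate 2 (-0.43). Calls for Adk, Aprt, Uck2, Tk1 and Uckl1 were lost without an intensity trend, with adjusted p between 0.0576 and 0.129.

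The supply of deoxynucleotides, used for DNA, had 4 measured genes, of which 2 rose (50%), 1 fell (25%) and 1 was not called. Among all genes 13.6% were higher and 15.0% lower. Tyms, thymidylate synthase, read 63.4 and 58.7 at 33 °C, under the limit for dim probe sets, and 203.8 and 192.4 at 39 °C, a change of 1.35 ± 0.25 (SE, adjusted p 0.00777). Rrm1, the large subunit of ribonucleotide reductase, rose by 0.51 ± 0.08 (SE). Samhd1, which breaks deoxynucleotides down, changed by -1.13 ± 0.26 (SE, adjusted p 0.0194) and was dim on average at 39 °C. The Samhd1 call was lost when any 1 array was left out (-1.32 to -0.93), and the Tyms call without either nonpermissive array (1.33 and 1.35). The Rrm1 call was lost with spike-in scaling (0.04) and without an intensity trend (adjusted p 0.0819).

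Nucleotide kinases, which add further phosphates, were divided, with 3 of 10 lower (30%), 3 higher (30%) and 4 not called. Among all genes 15.0% were lower and 13.6% higher. The largest were the falls of Nme6 (-0.72 ± 0.18 SE) and Nme2 (-0.55 ± 0.09) and the rises of Ak3 (0.72 ± 0.11) and Nme3 (0.49 ± 0.13). None of these 4 was called without an intensity trend (adjusted p 0.0636 to 0.121). The Nme6 call was also lost on the deposited scale (-0.60) and when permissive replicate 1 or any nonpermissive array was dropped (-0.57, -0.83 and -0.63). The Nme3 call was lost with median centring (0.42), with spike-in scaling (0.19) and when permissive replicate 2 or any nonpermissive array was dropped (0.36, 0.48 and 0.51).

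Breakdown genes held the largest rise of all the lists. Xdh, xanthine dehydrogenase, which makes uric acid from purines, read 130.9 and 127.6 at 33 °C and 813.3 and 828.0 at 39 °C. The replicates agreed closely on both sides, and the change of 2.44 ± 0.13 (SE) was 5.41-fold with an adjusted p of 8.5e-05. It was called under each of the 13 alternatives. Of the 16 breakdown genes measured, 7 were dim, 13 were not called and 2 fell: the nucleotidases Nt5c (-1.57 ± 0.16 SE, 2.97-fold lower) and Nt5c3b (-0.75 ± 0.11). That is 12.5% lower and 6.25% higher, beside 15.0% and 13.6% of all genes. The Nt5c3b call was lost without an intensity trend (adjusted p 0.0513). Among 6 transporters of nucleosides, the lysosomal carrier Slc29a3 fell (-0.86 ± 0.19 SE, adjusted p 0.0175) and the other 5 were not called. That share of 16.7% lower is close to the 15.0% of all genes. A second, dimmer Slc29a3 probe set (1374200_at) changed by -0.62 ± 0.27 (SE) and was not called (adjusted p 0.144). The Slc29a3 call was lost when permissive replicate 1 (-0.77) or any nonpermissive array (-0.88 and -0.85) was dropped.

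**Figure D5:**
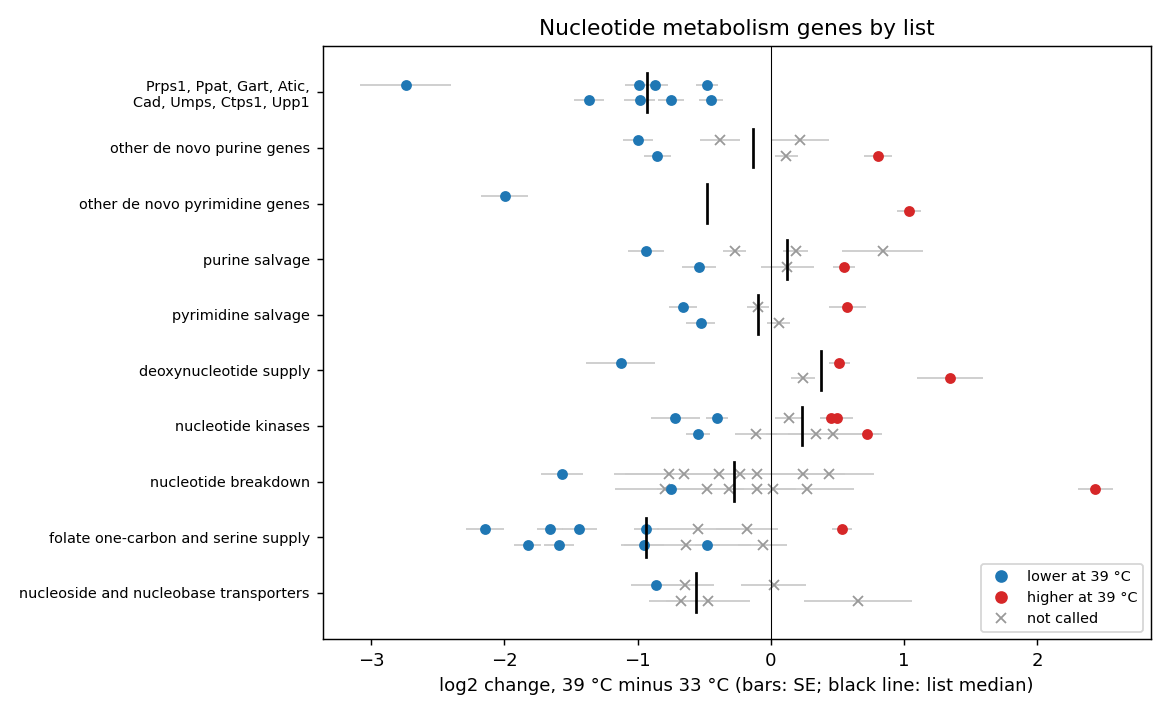
Log2 change from 33 °C to 39 °C of each measured gene by list, with SE bars, filled circles for called genes, crosses for genes not called and a black line at each list's median. All 8 genes of the top row are called lower, the folate and serine list has 8 of 13 lower, and Xdh stands alone at 2.44 in the breakdown list.

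Over log2 values of all probe sets the correlation was 0.979 for the 33 °C pair, 0.98 for the 39 °C pair and 0.95 to 0.953 across temperatures. The ratio of 3′ to 5′ control intensities, a sign of RNA integrity, was 1.14 to 1.17 at 33 °C and 1.01 to 1.12 at 39 °C for Gapdh, and 1.18 to 1.33 and 1.26 to 1.38 for actin. Of 10 epithelial markers, 9 were above the limit for dim probe sets, with Krt5 under it, and their summed intensity was 75772.2 and 79088.6 at 33 °C and 85024.0 and 85422.6 at 39 °C. With quantile normalization, the only scaling in which single markers were examined, 4 epithelial markers were called higher, namely Dsp (1.13), Cldn4 (0.87), Krt19 (0.77) and Epcam (0.53), and 2 were called lower, Krt7 (-0.45) and Krt18 (-0.36). Of 8 mesenchymal markers 4 were above the limit, led by Vim, with Col1a1 and Col1a2 under it. Their sum was 8372.6 and 9494.1, then 8104.5 and 8860.1, and was mostly Vim alone (7875.3 and 8911.3, then 7283.0 and 8199.4). Of these markers 1 was called higher, Col3a1, which was dim at 33 °C (59.1 and 47.9). Of 5 leukocyte markers only Cd14 was above the limit, and neither of 2 measured endothelial markers was. The leukocyte sum was 850.7 to 902.4 at 33 °C and 759.3 to 853.8 at 39 °C, mostly Cd14 alone (803.9 and 823.1, then 636.4 and 750.4). The part of these differences in the results was not tested.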

How the data were processed

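Total RNA was treated with DNase and copied through cDNA into biotin-labelled cRNA for Affymetrix rat arrays, per the labels' protocols. The deposited values are linear intensities, 1 per probe set, and their trimmed mean (2% cut at each end) lies between 500.1 and 500.2 on every array, so they came already scaled. No source used here names the software that summarised the probes. Precision is limited by having 4 arrays.

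The 57 control probe sets were left out, 16 was added, and log2 values were quantile normalized, because the log2 medians of the arrays spanned 0.175. A log2 change understates the change of dim genes. All 15866 other probe sets were fitted with limma 3.58.1 in R 4.3.3 (eBayes with an intensity trend). There were 2 residual degrees of freedom, and the prior ones had a median of 4.99. Tests were two-sided, and p-values were adjusted over all probe sets (Benjamini-Hochberg, 0.05). Symbols came from GEO's platform annotation: 12783 of the probe sets had 1, 312 had several and were not named, and 2771 had none listed. A match by Entrez identifier to RefSeq found 12754 of the annotated probe sets and changed 0 symbols. Each gene was represented by its brightest probe set, one ending in _x_at only where there was no other. The members and lists were chosen with earlier results of these data known. Named genes were every member, the isozymes of members and, per other list, up to 2 called genes that rose most and 2 that fell most, and any further gene is marked as chosen later. The procedure was run on simulated data with independent arrays and changes planted only in probe sets well above the dim limit. That run does not cover dim genes. The alternatives were 3 other scalings, adding 1 or 64, a filter on dim probe sets with and without 1 probe set per gene, no intensity trend, a replicate block and leaving out each array. Motifs were searched in the 250 bases before RefSeq starts (GRCr8). Python 3.11.15 and matplotlib 3.10.9 made the figures.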

Additional observations from a re-analysis of the deposited data

How the results depend on the processing

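For 40 probe sets named or belonging to the members, 463 of 516 values under the alternatives stayed on their side of the threshold, 48 lost the call, 5 gained it and 0 turned a call to the other direction. Of the 463, 4 changed sign without a call on either side: Hprt1 with median centring (-0.06) and spike-in scaling (-0.29), and the dim Ctps1 probe set on the deposited scale (0.05) and without nonpermissive replicate 1 (0.0030). All 8 member genes were called lower under each alternative other than no intensity trend, which left 5 of them, and leaving out either nonpermissive array, which left 7. No intensity trend also gave 1838 calls among all probe sets in place of 3926, with 13 other pathway genes lower and 4 higher in place of 22 and 11. The median change of the member genes moved from -0.93 to -1.02 with median centring and to -1.26 with spike-in scaling, which left 5 other pathway genes higher. With 1 array left out, where the lone array is assumed to vary like the pair, the median lay between -1.0 and -0.84, calls among all probe sets between 2126 and 3218, member genes lower between 7 and 8, other pathway genes lower between 16 and 20 and higher between 7 and 10. With the replicate number as a block there were 3975 calls, 8 member genes lower and 23 other pathway genes lower, and no named call changed. Same-numbered arrays share only a number in the labels, and their deviations correlated at 0.0068. The intensity near the dim limit restricts what can be read of Upp1 at 39 °C and of the dimmer Ctps1 probe set.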
